A study of Arabidopsis thaliana with 43 samples.

Results

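The 5 class III homeodomain-leucine zipper (HD-ZIP III) genes PHABULOSA (PHB, AT2G34710), PHAVOLUTA (PHV, AT1G30490), REVOLUTA (REV, AT5G60690), CORONA (CNA, AT1G52150) and ATHB8 (AT4G32880), and the 3 KANADI genes KAN1 (AT5G16560), KAN2 (AT1G32240) and KAN3 (AT4G17695), were followed through embryogenesis in Arabidopsis thaliana. These 8 loci were chosen by name from the 32507 loci in the expression tables. Every library came from wild-type embryos of the Col-0 accession, with 50 embryos pooled for each RNA isolation and no treatment or mutant allele. The 8 stages were preglobular (8-cell and 16-cell embryos), globular, early heart, late heart, early torpedo, late torpedo, bent cotyledon and mature green, each with 3 libraries made by Smart-seq2, a full-length cDNA method for small RNA amounts. Bent cotyledon RNA was also amplified by Smart-seq2 from 1, 0.5 and 0.1 ng in place of 5 ng, with 3 libraries each, and by the Ovation and SMARTer kits from 5, 1, 0.5, 0.1 and 0.05 ng, with 1 library each. The titles number the 3 mature green libraries 1 to 3 while their descriptions call each one the first replicate, so their independence as replicates rests on the titles.

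HD-ZIP III proteins are transcription factors with a homeodomain, a leucine zipper and a lipid-binding START domain, and they promote adaxial (upper) identity in leaves and cotyledons, vascular patterning and formation of the shoot apical meristem. KANADI proteins are GARP-family transcription factors that promote abaxial (lower) identity, and the 2 families act in opposition along the adaxial-abaxial and central-peripheral axes of the embryo. HD-ZIP III transcripts are restricted by the microRNAs miR165 and miR166, and their proteins by the LITTLE ZIPPER (ZPR) proteins, which are themselves encoded by HD-ZIP III targets and form inactive heterodimers with them.

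The regulatory site that separates the families is shown first, because it is the feature that all 5 HD-ZIP III genes carry in their coding sequence. The mature microRNAs are written 5′ to 3′ from RefSeq (assembly TAIR10.1), with the seed, bases 2 to 8, in capitals; 2 loci encode the miR165 sequence and 7 encode the miR166 sequence, and all 9 share the seed.
miR165a-3p: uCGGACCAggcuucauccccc
miR166a-3p: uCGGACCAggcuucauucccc
The mature sequences differ by 1 base, C17U, counted from 1 at the 5′ end of miR165a-3p. The best window for miR166a-3p in each HD-ZIP III transcript follows its gene name, 5′ to 3′ on the mRNA strand, with bases that form Watson-Crick pairs in capitals and mismatches or G:U pairs in lower case.
PHB and PHV: ttGGgATGAAGCCTGGTCCGg
REV and ATHB8: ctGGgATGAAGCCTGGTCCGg
CNA: ctGGAATGAAGCCTGGTCCGg
All 5 windows carry 2 mismatches to miR166a-3p, at positions 20 and 21 of the microRNA. CNA has a single G:U pair, at position 1, and the other 4 genes have G:U pairs at positions 1 and 17. Against miR165a-3p the order turns, since CNA then has 3 mismatches, at positions 17, 20 and 21, and the other 4 genes have 2.

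Each site is coding sequence split over an exon junction. In PHB it lies on the minus strand of chromosome 2 at chr2:14642656-14642666 and chr2:14642530-14642539, the end of exon 4 and the start of exon 5 of 17. The PHV site is at chr1:10799435-10799445 and chr1:10799330-10799339 on the minus strand, in exons 4 and 5 of 18, and the CNA site at chr1:19413075-19413085 and chr1:19412976-19412985 on the same strand, in exons 4 and 5 of 18. The REV site is at chr5:24398787-24398797 and chr5:24398889-24398898 on the plus strand, in exons 4 and 5 of 18. The ATHB8 site is at chr4:15866964-15866974 and chr4:15866872-15866881 on the minus strand, in exons 5 and 6 of 18. The 3 annotated CNA transcripts all carry the window. In the 3 KANADI genes the best window of the same length had 6 to 9 mismatches. Lengths matched between RefSeq and the deposited tables for 12 of 12 member transcripts. A match of letters is a description of the transcript, and cleavage at these sites was not analysed here. None of the 9 microRNA loci was among the 32507 loci measured, so their levels are not given.

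The 24 stage libraries held 8432892 to 35807605 estimated counts each, the 21 outside bent cotyledon at least 17769463. Libraries of a stage correlated with each other across 21014 genes, on log2(CPM + 1), with a mean r of 0.9756 or more except for early torpedo replicate 2 at 0.9631 and mature green replicate 3 at 0.9645. Of 8 embryo markers, 8 endosperm markers and 8 seed coat markers, the embryo set summed to 631 to 4302 TPM (transcript abundance corrected for length and depth), the endosperm set to 0.240 to 5.6 TPM and the seed coat set to 2.00 to 16.1 TPM. In the embryo set PDF1 alone had 535 to 3767 TPM. STM was at 0 in preglobular embryos and WOX8 at 0 in mature green embryos, where 3 embryo markers had a mean under 1 TPM. Of the endosperm markers 6, and of the seed coat markers 5, were under 2 TPM in all 24 libraries, with IKU2 at 0 at several stages. The highest seed coat marker was STK, at 0.209 to 10.2 TPM, and the highest endosperm marker ALE1, at 0 to 2.67 TPM. The seed coat sum was 8.45 to 16.1 TPM in libraries from preglobular to early heart and 2.00 to 3.12 TPM at bent cotyledon and mature green, and the endosperm sum 4.58 to 4.85 TPM at early heart, 2.76 to 3.11 TPM at globular and 0.396 to 2.66 TPM at preglobular. The part of these traces in the results was not tested. Each bulk library averages over whole embryos, so fewer cells of a type and less RNA per cell cannot be told apart. The labels name the libraries of a stage as biological replicates.

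Every member was detected at every stage and all 8 passed the filter on low counts. Between stages, levels are given in CPM, counts scaled to library size and by trimmed mean of M-values (TMM) factors, as mean ± SD with n = 3. The test was edgeR's quasi-likelihood test with Benjamini-Hochberg adjustment over the 21014 genes tested, and a gene was called at an adjusted p under 0.05. Over the 8 stages all 8 members were called, with adjusted p from 5.02e-09 for CNA to 0.000584 for PHV, beside 91.1% of all genes tested. Their highest stage mean exceeded the lowest by 2.03-fold for PHV, 2.18-fold for PHB, 2.69-fold for REV, 3.18-fold for ATHB8, 3.64-fold for KAN1, 4.41-fold for KAN2, 6.67-fold for CNA and 20.7-fold for KAN3.

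**Figure D1:**
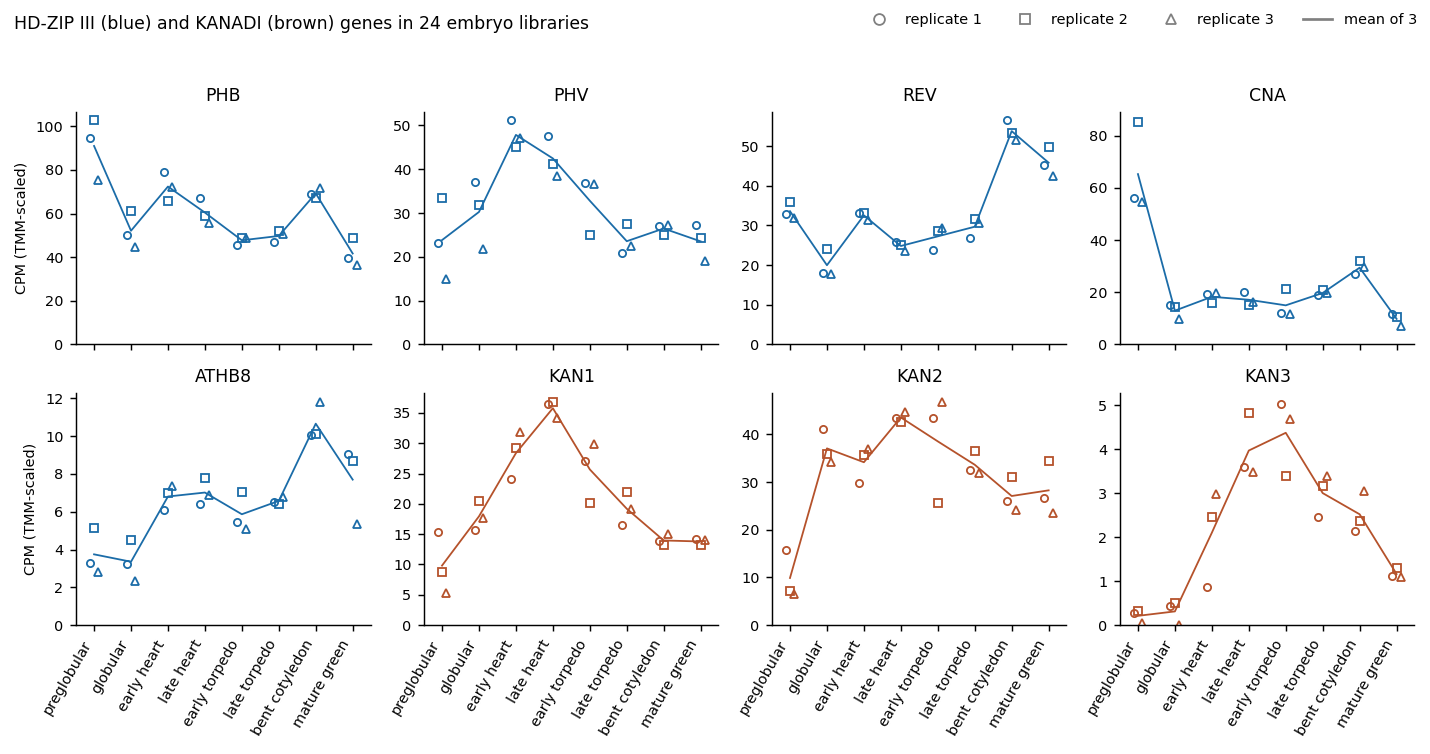
Level of each member in CPM (vertical axis, TMM-scaled, linear from 0) in the 3 libraries of each of the 8 stages (horizontal axis, preglobular to mature green); symbols are libraries and the line joins the stage means. CNA was highest at preglobular at 65.3 CPM, REV at bent cotyledon at 53.8 CPM, and KAN1 and KAN2 at late heart at 35.8 and 43.5 CPM.

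PHB, with PHV the pair whose gain-of-function alleles turn leaves adaxial, was highest on average in the youngest embryos in CPM. It measured 91.0 ± 14.2 CPM at preglobular, 52.1 ± 8.31 at globular, 72.4 ± 6.66 at early heart, 60.4 ± 5.87 at late heart, 47.7 ± 2.05 at early torpedo, 49.7 ± 2.5 at late torpedo, 69.2 ± 2.34 at bent cotyledon and 41.7 ± 6.49 at mature green. The 3 highest stages, preglobular, early heart and bent cotyledon, overlapped in their order, bent cotyledon stood clear of late heart, and each stage from late heart down overlapped the next. In TPM the order was another one, with 30.3 to 33.7 TPM in early heart libraries, against 17.2 to 25.7 TPM in preglobular libraries. PHV followed another course, at 23.8 ± 9.20 CPM in preglobular embryos, 30.2 ± 7.72 at globular, 47.8 ± 3.08 at early heart, 42.5 ± 4.69 at late heart, 32.8 ± 6.76 at early torpedo, 23.6 ± 3.46 at late torpedo, 26.5 ± 1.21 at bent cotyledon and 23.5 ± 4.20 at mature green. Both heart stages exceeded every early torpedo library, the next in the order, and no other neighbours in PHV's order were apart.

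CNA, which acts with PHB and PHV in the shoot meristem, had the steepest course of the HD-ZIP III genes. It measured 65.3 ± 17.2 CPM at preglobular, 12.9 ± 2.88 at globular, 18.2 ± 2.19 at early heart, 17.1 ± 2.63 at late heart, 15.0 ± 5.40 at early torpedo, 19.7 ± 0.953 at late torpedo, 29.4 ± 2.51 at bent cotyledon and 9.78 ± 2.56 at mature green. Preglobular embryos stood above all other stages and bent cotyledon embryos above the remaining 6, whose neighbours in the order overlapped. Early torpedo replicate 2, at 21.2 CPM, lay apart from its mates at 12.2 and 11.5 CPM.

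REV, a regulator of lateral meristems, vasculature and leaf polarity, and ATHB8, which marks procambium, the precursor of vascular tissue, were highest late in CPM. REV measured 33.6 ± 2.16 CPM at preglobular, 20.0 ± 3.60 at globular, 32.5 ± 1.05 at early heart, 24.8 ± 1.22 at late heart, 27.3 ± 3.03 at early torpedo, 29.7 ± 2.52 at late torpedo, 53.8 ± 2.60 at bent cotyledon and 45.8 ± 3.68 at mature green. Bent cotyledon exceeded mature green without overlap, mature green exceeded preglobular without overlap, and the lower 6 overlapped from each to the next. ATHB8 measured 3.74 ± 1.21 CPM at preglobular, 3.35 ± 1.07 at globular, 6.80 ± 0.646 at early heart, 7.01 ± 0.695 at late heart, 5.86 ± 1.04 at early torpedo, 6.57 ± 0.188 at late torpedo, 10.7 ± 1.00 at bent cotyledon and 7.70 ± 2.06 at mature green. For ATHB8 bent cotyledon alone stood clear of its neighbour in the order. In TPM early heart came close to bent cotyledon, at 12.6 against 13.5 for REV and 2.97 against 3.03 for ATHB8. REV at mature green, at 6.91 TPM, was then below preglobular at 7.36 TPM.

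All 3 KANADI genes were lowest in preglobular embryos. KAN1, which with KAN2 specifies abaxial cells of lateral organs, measured 9.82 ± 5.10 CPM at preglobular, 17.9 ± 2.42 at globular, 28.4 ± 3.98 at early heart, 35.8 ± 1.44 at late heart, 25.7 ± 4.99 at early torpedo, 19.2 ± 2.71 at late torpedo, 14.0 ± 0.920 at bent cotyledon and 13.8 ± 0.473 at mature green. Late heart stood clear of early heart, and globular clear of bent cotyledon, in an order in which all other neighbours overlapped. KAN2 measured 9.88 ± 5.15 CPM at preglobular, 37.0 ± 3.60 at globular, 34.2 ± 3.77 at early heart, 43.5 ± 1.05 at late heart, 38.5 ± 11.4 at early torpedo, 33.6 ± 2.47 at late torpedo, 27.1 ± 3.62 at bent cotyledon and 28.2 ± 5.63 at mature green. Only preglobular stood apart from its neighbour in the KAN2 order. KAN3 was the least abundant member, at 0.211 ± 0.144 CPM in preglobular embryos, 0.312 ± 0.273 at globular, 2.1 ± 1.11 at early heart, 3.97 ± 0.746 at late heart, 4.37 ± 0.860 at early torpedo, 3.00 ± 0.482 at late torpedo, 2.52 ± 0.480 at bent cotyledon and 1.16 ± 0.116 at mature green. Late heart stood above late torpedo and mature green above globular without overlap. Globular replicate 3 had no KAN3 count, which at that depth allows up to 0.164 CPM (3 counts, counting error only).

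In globular over preglobular embryos CNA fell and KAN2 rose, on the CPM and the TPM scale alike. In CPM, of the 8 members 5 were called, beside 23.6% of all genes tested: PHB, REV and CNA fell, and KAN1 and KAN2 rose. On log2(TPM + 1), tested with limma, PHB (−0.28, adjusted p = 0.186) and REV (−0.22, adjusted p = 0.220) did not pass and PHV did, as higher (0.78, adjusted p = 0.0158). The median log2 fold change, later minus earlier, was −0.75 over the 5 HD-ZIP III genes and 0.87 over the 3 KANADI genes, against 0.00 over all genes tested, all in CPM. CNA had 14.9, 14.2 and 9.6 CPM in globular embryos, against 56.1, 85.1 and 54.6 CPM in preglobular embryos. Its lowest preglobular library was thus far above its highest globular one, and the difference was −2.33 ± 0.24 on the log2 scale (SE), 5.03-fold lower, with an adjusted p of 1.01e-06, and −1.59 on log2(TPM + 1). PHB had 50.3, 61.2 and 44.9 CPM in globular embryos, against 94.5, 103 and 75.3 CPM in preglobular embryos, and REV had 18.1, 24.1 and 17.7 CPM in globular embryos, against 32.9, 36.0 and 31.9 CPM in preglobular embryos. Neither gene's stages overlapped, and the log2 fold changes were −0.80 ± 0.14 for PHB (adjusted p = 0.000212) and −0.75 ± 0.12 for REV (adjusted p = 0.000143). PHV, at 0.35 (adjusted p = 0.297), and ATHB8, at −0.15 (adjusted p = 0.720), did not pass, but PHV passed without preglobular replicate 2 (0.66, adjusted p = 0.0446).

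KAN2 had 41.1, 36.0 and 34.1 CPM in globular embryos, against 15.8, 7.22 and 6.61 CPM in preglobular embryos. The stages did not overlap, and preglobular replicate 1 was over 2 times either of its mates; the log2 fold change was 1.91 ± 0.26 (adjusted p = 2.12e-05), 3.75-fold, and 2.40 without that library (adjusted p = 2.42e-07). KAN1 had 15.6, 20.5 and 17.7 CPM in globular embryos, against 15.4, 8.74 and 5.34 CPM in preglobular embryos. The same preglobular library lay just below the lowest globular one. KAN1 passed at 0.87 ± 0.24 (adjusted p = 0.0115) and at 1.32 without preglobular replicate 1 (adjusted p = 0.000122), but not without preglobular replicate 2 (adjusted p = 0.0552), preglobular replicate 3 (adjusted p = 0.0744) or globular replicate 2 (adjusted p = 0.0548), nor in a fit of these stages alone (adjusted p = 0.0909). KAN3 had 0.65 (adjusted p = 0.532) on 14 counts in all at preglobular.

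**Figure D2:**
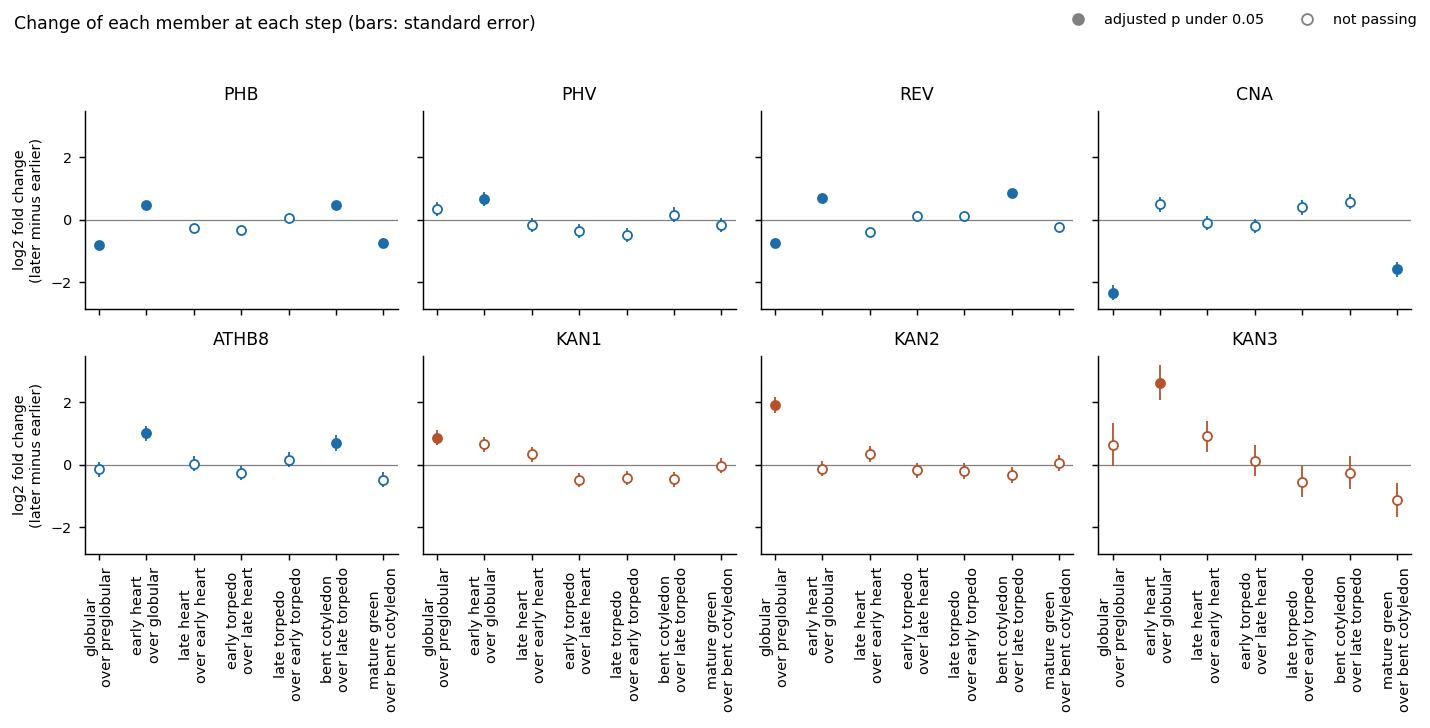
Log2 fold change of each member, later minus earlier stage (vertical axis), for the 7 successive steps (horizontal axis), with SE; filled points were called at an adjusted p under 0.05. Called changes in CPM lie at the first 2 and the last 2 steps, and none at the 3 steps between early heart and late torpedo.

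Between globular and early heart embryos, when the cotyledons and the shoot meristem are set up, all 5 called members rose. These were PHB, PHV, REV, ATHB8 and KAN3, beside 8.57% of all genes tested called higher; no member fell, beside 9.03% called lower. In either direction 17.6% of genes tested were called. The endosperm marker sum was also higher in every early heart library than in every globular one, and its part in these results was not tested. The median log2 fold change was 0.66 over the HD-ZIP III genes and 0.66 over the KANADI genes, against 0.04 over all genes tested. KAN3 had 0.86, 2.46 and 2.99 CPM in early heart embryos, against 0.43, 0.51 and 0.00 CPM in globular embryos. The difference was 2.63 ± 0.57 on the log2 scale, 6.18-fold, with an adjusted p of 0.00342, and it rests on few counts at the earlier stage. REV had 33.2, 33.1 and 31.3 CPM in early heart embryos, against 18.1, 24.1 and 17.7 CPM in globular embryos, a log2 fold change of 0.70 ± 0.12 (adjusted p = 0.000627). ATHB8 had 6.09, 6.97 and 7.35 CPM in early heart embryos, against 3.22, 4.49 and 2.35 CPM in globular embryos, a log2 fold change of 1.01 ± 0.24 (adjusted p = 0.00731).

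PHB had 79.1, 65.7 and 72.3 CPM in early heart embryos, and the log2 fold change over the globular values above was 0.47 ± 0.13 (adjusted p = 0.0189). That call was lost without globular replicate 1 (adjusted p = 0.0756), globular replicate 3 (adjusted p = 0.102), early heart replicate 1 (adjusted p = 0.0769) or early heart replicate 3 (adjusted p = 0.0594). PHV had 51.2, 45.2 and 47.2 CPM in early heart embryos, against 37.0, 31.9 and 21.8 CPM in globular embryos. These did not overlap, and the log2 fold change was 0.66 ± 0.23 (adjusted p = 0.0477), a call lost under 22 of 33 alternative settings with adjusted p up to 0.215, that being the value without globular replicate 3. KAN1 had 24.1, 29.2 and 31.9 CPM in early heart embryos, all above the globular libraries. Its log2 fold change of 0.66 missed the threshold (adjusted p = 0.0547) and passed without preglobular replicate 1 (adjusted p = 0.0127), preglobular replicate 3 (adjusted p = 0.0134) or early torpedo replicate 2 (adjusted p = 0.0381). KAN1 also passed in a fit of these stages alone (adjusted p = 0.0115). CNA, at 0.49 (adjusted p = 0.154), and KAN2, at −0.12 (adjusted p = 0.794), did not pass in CPM. On log2(TPM + 1), where the median of all genes was shifted by 0.24, limma called CNA higher (0.70, adjusted p = 0.0156). On that scale KAN1 was called higher too (0.89, adjusted p = 0.0130).

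From early heart to late torpedo no member was called in CPM at any of the 3 steps. The shares of all genes called were 2.45% for late heart over early heart (1.22% higher and 1.23% lower), 19.0% for early torpedo over late heart (13.3% higher and 5.76% lower) and 1.13% for late torpedo over early torpedo (0.666% higher and 0.466% lower). At each step 1 member had an unadjusted p under 0.05, and DESeq2 called 1, 0 and 0 members in that order of steps. The member called by DESeq2 was REV, with 25.9, 25.0 and 23.5 CPM in late heart embryos, against 33.2, 33.1 and 31.3 CPM in early heart embryos. These libraries did not overlap, and DESeq2 gave a log2 fold change of −0.40 (adjusted p = 0.0146). A fit of these stages alone called REV (−0.40, adjusted p = 0.0107) and KAN2 (0.34, adjusted p = 0.0460) in late over early heart. On log2(TPM + 1), where all genes shifted by −0.32, limma called PHB, PHV, CNA, ATHB8 and KAN1 lower in early torpedo over late heart, with log2 fold changes of −0.77, −0.79, −0.58, −0.51 and −0.90. Leaving out early torpedo replicate 2 changed no call in CPM at these steps.

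In bent cotyledon embryos 3 HD-ZIP III genes rose over late torpedo, beside 13.7% of all genes tested called higher, and no KANADI gene was called in either direction, beside 33.3% of all genes. With the 1 ng libraries in place of the 5 ng ones KAN1 was called lower, at −0.85 (adjusted p = 0.0227), against −0.46 with the 5 ng libraries. REV had 56.6, 53.3 and 51.5 CPM in bent cotyledon embryos, against 26.8, 31.7 and 30.5 CPM in late torpedo embryos. No library overlapped, and the log2 fold change was 0.86 ± 0.12 (adjusted p = 1.71e-05). PHB had 68.8, 67.2 and 71.8 CPM in bent cotyledon embryos, against 46.9, 51.8 and 50.5 CPM in late torpedo embryos, a log2 fold change of 0.48 ± 0.14 (adjusted p = 0.00991). ATHB8 had 10.04, 10.1 and 11.8 CPM in bent cotyledon embryos, against 6.52, 6.41 and 6.78 CPM in late torpedo embryos. All bent cotyledon libraries were the higher ones, but the call (0.70 ± 0.24, adjusted p = 0.0325) was lost without any 1 of these 6 libraries, with adjusted p up to 0.105. CNA had 26.9, 31.9 and 29.5 CPM in bent cotyledon embryos, against 18.8, 20.7 and 19.7 CPM in late torpedo embryos. These did not overlap either; the log2 fold change of 0.58 missed the threshold (adjusted p = 0.0627) and passed under 11 of 33 alternatives, among them without early torpedo replicate 2 (adjusted p = 0.0267), without mature green replicate 3 (adjusted p = 0.0377) and in a fit of these stages alone (adjusted p = 0.00288).

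In mature green embryos, which accumulate storage reserves, PHB and CNA fell below bent cotyledon, beside 28.2% of all genes tested called lower, and no member rose, beside 27.2% called higher. In either direction 55.4% of genes were called. On log2(TPM + 1), where all genes shifted by −0.44, limma called all 8 members lower. CNA had 11.8, 10.6 and 6.9 CPM in mature green embryos, against 26.9, 31.9 and 29.5 CPM in bent cotyledon embryos. The mature green libraries were all below, with a log2 fold change of −1.59 ± 0.25 (adjusted p = 1.26e-05), 3.0-fold lower. PHB had 39.8, 48.9 and 36.3 CPM in mature green embryos, against 68.8, 67.2 and 71.8 CPM in bent cotyledon embryos, a log2 fold change of −0.73 ± 0.14 (adjusted p = 0.000118). REV, with 45.3, 49.7 and 42.4 CPM in mature green embryos, was below every bent cotyledon library and was not called in CPM, but was on log2(TPM + 1), at −0.88 (adjusted p = 1.76e-05). KAN3 had 1.1, 1.29 and 1.08 CPM in mature green embryos, against 2.13, 2.37 and 3.06 CPM in bent cotyledon embryos; these did not overlap, and the log2 fold change of −1.12 did not pass (adjusted p = 0.0940), but did in a fit of these stages alone (adjusted p = 0.0240) and without globular replicate 3 (adjusted p = 0.0342).

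Late heart embryos were set against preglobular embryos to span the whole interval of patterning, and all 8 members were called, beside 53.3% of all genes tested. PHB, REV and CNA were lower at late heart, beside 25.8% of all genes called lower, and PHV, ATHB8 and the 3 KANADI genes higher, beside 27.5% called higher. The log2 fold changes of KAN1, KAN2 and KAN3 were 1.86, 2.14 and 4.19 (adjusted p = 1.91e-06, 7.68e-07 and 8.98e-06). KAN3, with 401 counts in late heart libraries against 14 in preglobular libraries, was 18.3-fold higher. Without preglobular replicate 1 the log2 fold changes of KAN1 and KAN3 were 2.30 and 4.36. Among HD-ZIP III genes the log2 fold change was −1.93 for CNA (adjusted p = 7.83e-07), 0.83 for PHV (adjusted p = 0.00403) and 0.90 for ATHB8 (adjusted p = 0.00372). PHB at −0.59 (adjusted p = 0.000915) and REV at −0.44 (adjusted p = 0.00424) were lower in CPM but had 0.13 and 0.25 on log2(TPM + 1), where the median of all genes was shifted by 0.52.

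Mature green over preglobular embryos compares the ends of the series, and 6 members were called, beside 75.9% of all genes tested, 4 of them higher (38.5% of all genes) and 2 lower (37.4% of all genes). CNA was 6.66-fold lower in mature green embryos (log2 fold change −2.74, adjusted p = 2.35e-09), and PHB was lower by a log2 fold change of −1.13 (adjusted p = 2.12e-07). ATHB8 at 1.04 (adjusted p = 0.000792), KAN2 at 1.52 (adjusted p = 1.97e-05) and KAN3 at 2.42 (adjusted p = 0.00211) were higher. None of these passed on log2(TPM + 1), where all genes shifted by −0.26. The calls of ATHB8 and KAN2 were also lost on log2(TPM + 0.1), and the KAN3 call under no other of the 33 alternatives. REV was higher in CPM, with a log2 fold change of 0.45 (adjusted p = 0.00212), but had −0.08 on log2(TPM + 1). PHV, at −0.02 (adjusted p = 0.949), was not called. KAN1, at 0.49 (adjusted p = 0.0755), passed without preglobular replicate 1 at 0.96 (adjusted p = 0.000388).

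The choice of scale moved whole steps. The TMM factors behind CPM were 0.553 to 0.628 in mature green libraries and 0.838 to 1.30 in the others. On log2(TPM + 1), tested with limma, the median of all genes was shifted by 0.35 for globular over preglobular, by 0.24 for early heart over globular, by −0.32 for early torpedo over late heart and by −0.44 for mature green over bent cotyledon. At the first of these steps 8501 genes were then called higher and 1074 lower, against 2406 higher and 2555 lower in TMM-scaled CPM. KAN2 in mature green over bent cotyledon embryos was not called in CPM and was called lower on log2(TPM + 1), at −0.63 (adjusted p = 0.0300).

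Levels of different members were compared in TPM, which divides by transcript length. PHB was the most abundant HD-ZIP III transcript on average at every stage, at 22.6 TPM in preglobular embryos, 31.6 at early heart and 7.10 at mature green, where REV at 6.91 TPM was close to it and exceeded it in 2 of 3 libraries. ATHB8 was the least abundant, at 0.923 TPM in preglobular embryos and 2.97 TPM in early heart embryos. Among the 3 KANADI members KAN2 made up 57.5% to 82.5% of their summed TPM in every stage library, and KAN3 0% to 9.87%. The KAN2 part includes a short transcript whose share is an estimate, and KAN4 was left out of the sum.

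The make-up of the HD-ZIP III sum turned over with stage. CNA contributed 27.9 ± 2.80% of the summed TPM in preglobular embryos, 9.87 ± 0.92% in globular embryos, 14.5 ± 1.41% at bent cotyledon and 7.01 ± 1.17% at mature green. PHV contributed 11.5 ± 2.36% at preglobular, 26.6 ± 4.15% at globular, 28.2 ± 0.38% at early heart and 15.0 ± 0.52% at bent cotyledon. REV contributed 14.6 ± 1.9% at preglobular, 26.4 ± 1.45% at bent cotyledon and 33.3 ± 2.33% at mature green, while PHB stayed between 31.3% and 47.9% in every library. The CNA share in each preglobular library was thus above that in any later library.

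Summed over the 5 HD-ZIP III and the 3 KANADI members, HD-ZIP III transcripts outnumbered KANADI transcripts most in preglobular embryos. KAN4, a further family member, was not in the KANADI sum. The HD-ZIP III sum was 41.0 ± 9.18 TPM in globular embryos, against 51.3 ± 11.2 TPM in preglobular embryos, and the KANADI sum was 40.0 ± 4.79 TPM in globular embryos, against 10.3 ± 6.31 TPM in preglobular embryos. The ratio of the sums was 3.13, 7.58 and 7.15 in the preglobular libraries, 0.974, 1.18 and 0.906 at globular, 1.87, 1.42 and 1.44 at early heart, 1.19, 1.02 and 0.97 at late heart, and 0.927, 1.14 and 0.883 at early torpedo. It was 1.19, 1.20 and 1.26 at late torpedo, 2.64, 2.21 and 2.53 at bent cotyledon, and 1.86, 1.62 and 1.61 at mature green. Every preglobular library was above every other library, and the bent cotyledon libraries were above all others but those. Preglobular replicate 1 had the lowest ratio of its stage and the highest KAN1 and KAN2. These sums are a description of the measured levels and were not tested.

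**Figure D3:**
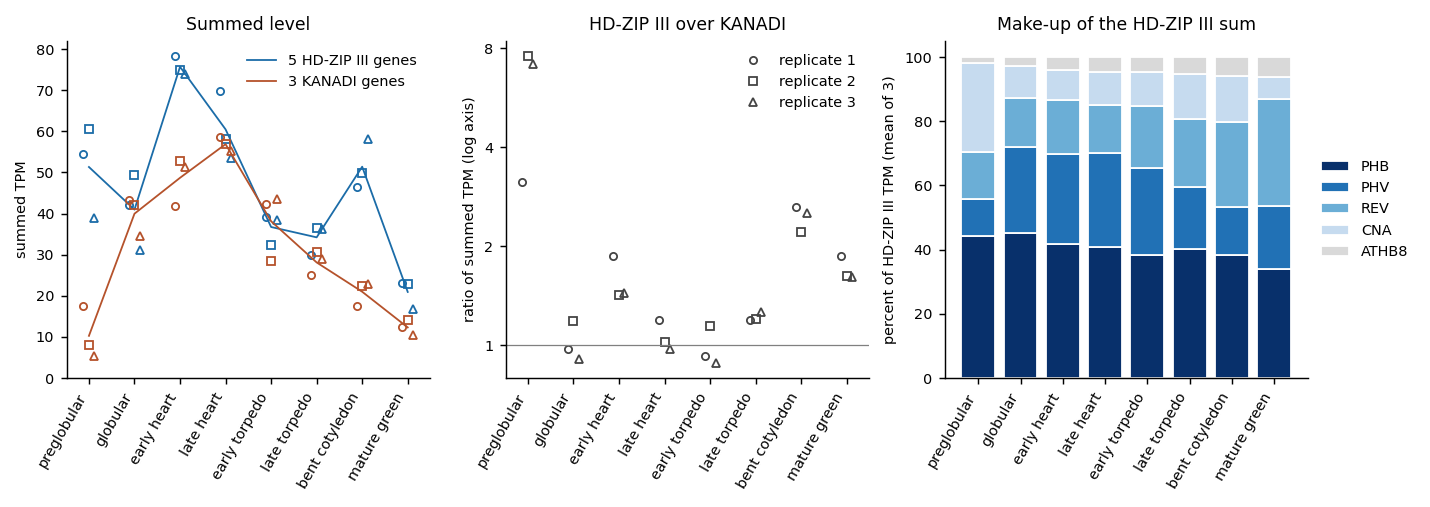
Summed TPM of the 5 HD-ZIP III and the 3 KANADI genes by stage, their ratio in each library on a log axis, and the mean share of each HD-ZIP III gene in the HD-ZIP III sum in percent, stages in developmental order from preglobular to mature green. The ratio runs from 0.883 to 7.58, and all 3 preglobular libraries lie above the rest.

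KAN2 and CNA were the only members with more than 1 annotated transcript in the tables. For KAN2 the shortest, AT1G32240.3 (663 bases), took 53.4% of the locus TPM on average in preglobular embryos, 41.9% at globular, 22.5% at early heart, 15.3% at late heart, 35.0% at early torpedo, 27.5% at late torpedo, 7.48% at bent cotyledon and 8.64% at mature green. AT1G32240.1 (1823 bases) held 44.4% at preglobular and 87.8% at bent cotyledon, and in TPM it was 17.2 ± 2.22 in globular embryos, against 2.97 ± 1.77 in preglobular embryos. In early torpedo replicate 2, the library least like its mates, the short transcript held 66.1% of the KAN2 locus TPM. For CNA, AT1G52150.1 (3539 bases) took 86.5% of the locus TPM at preglobular, 51.7% at early heart and 81.4% at bent cotyledon, with ranges between libraries as wide as 0.544% to 57.0% at early torpedo. Such shares come from reads that the transcripts of a locus share, so they are estimates. They enter the KAN2 TPM, and so the KANADI sum and the ratio of the sums given above. In preglobular embryos AT1G32240.1 had 2.97 TPM, against 3.33 TPM for KAN1, and in CPM KAN1 and KAN2 were at 9.82 and 9.88. At each later stage the mean TPM of AT1G32240.1 was above that of KAN1.

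The other genes of the pathway were taken from lists by role, and ZPR2, with 1 to 27 counts per stage, did not pass the filter. The little zippers, are inhibitors of HD-ZIP III proteins and their targets. At the globular step ZPR3 and ZPR4 were lower, 2 of 3 tested, beside 12.2% of all genes, and none was higher, beside 11.4%, with a median log2 fold change of −1.68, against 0.00 over all genes tested. ZPR3 had 28.8 ± 7.56 CPM in globular embryos, against 92.1 ± 17.2 CPM in preglobular embryos, a log2 fold change of −1.68 ± 0.21 (adjusted p = 7.92e-06). ZPR4 had 16.5 ± 7.39 CPM in globular embryos, against 55.7 ± 8.53 CPM in preglobular embryos, a log2 fold change of −1.76 ± 0.27 (adjusted p = 8.61e-05). ZPR3 fell again at early heart, to 15.1 ± 1.5 CPM (−0.92, adjusted p = 0.00451), a call not held on either TPM scale. ZPR1 was not called at these steps in CPM, though it was called higher at the globular step on log2(TPM + 1) (0.94, adjusted p = 0.0267). It rose at early torpedo to 13.9 ± 5.13 CPM, against 3.33 ± 1.33 CPM at late heart (2.06, adjusted p = 0.00196), and fell in mature green embryos to 2.55 ± 0.767 CPM, against 11.5 ± 1.74 CPM at bent cotyledon (−2.17, adjusted p = 0.000240).

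Of the 5 miRNA pathway genes, 1 was lower and none higher at the globular step (median log2 fold change 0.08), beside 12.2% and 11.4% of all genes. At early heart 1 was higher and none lower (median 0.07), beside 8.57% and 9.03% of all genes. AGO1, the main slicer loaded with plant microRNAs, had 311 ± 29.4 CPM in early heart embryos, against 204 ± 43.4 CPM in globular embryos, a log2 fold change of 0.60 (adjusted p = 0.00846), which missed the threshold without globular replicate 3 (adjusted p = 0.0540). At the globular step AGO1 was not called in CPM and was called higher on log2(TPM + 1) (0.59, adjusted p = 0.0204). AGO10, which binds miR165 and miR166 and keeps them from AGO1, had 105 ± 10.2 CPM in globular embryos, against 143 ± 4.18 CPM in preglobular embryos. That fall (−0.44, adjusted p = 0.0281) turned to 0.07 on log2(TPM + 1) and was lost without preglobular replicate 1 (adjusted p = 0.0506), preglobular replicate 2 (adjusted p = 0.0531), globular replicate 2 (adjusted p = 0.0770) or globular replicate 3 (adjusted p = 0.107). AGO10 rose in bent cotyledon embryos to 164 ± 7.0 CPM, against 99.4 ± 13.4 CPM at late torpedo (0.72, adjusted p = 0.000567), and fell in mature green embryos to 84.5 ± 16.3 CPM (−0.96, adjusted p = 9.08e-06). At the bent cotyledon step PHB and REV were higher too, as given above.

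Of 7 abaxial factors other than the 3 members, 4 were higher in globular over preglobular embryos, beside 11.4% of all genes, and none lower, beside 12.2%, with a median log2 fold change of 1.27, against 0.00 over all genes tested. FIL, a YABBY transcription factor of abaxial cells, had 75.2 ± 32.2 CPM in globular embryos, against 3.73 ± 0.792 CPM in preglobular embryos, 20.1-fold higher (4.33, adjusted p = 2.24e-10), and YAB5 had 43.0 ± 8.01 CPM in globular embryos, against 2.47 ± 2.42 CPM in preglobular embryos (4.11, adjusted p = 1.94e-07, and 5.29 without preglobular replicate 1, adjusted p = 2.73e-11). ETT, an auxin response factor that acts with KANADI proteins, had 215 ± 26.4 CPM in globular embryos, against 89.1 ± 10.1 CPM in preglobular embryos (1.27, adjusted p = 5.39e-05). KAN4, a family member known for its role in ovule integument, had 17.1 ± 0.734 CPM in globular embryos, against 5.73 ± 3.49 CPM in preglobular embryos (1.58, adjusted p = 0.00350, and 2.18 without preglobular replicate 1, adjusted p = 0.000251). ARF4, an auxin response factor, had 33.9 CPM in globular embryos, against 44.4 CPM in preglobular embryos, and YAB2 and YAB3 had 3 counts or fewer at either stage; none of these passed.

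YAB2 and YAB3 rose at the next step, the step at which KAN3 rose. YAB3 had 0.534 CPM in the lowest early heart library and 16.0 CPM in the highest, a mean of 9.87 CPM, and no count in globular embryos, at least 255-fold higher over the limit of 3 counts in the globular group. YAB2 had 754 counts in early heart embryos, with 1.74 to 9.17 CPM, and 3 counts in globular embryos. At early heart 3 abaxial factors were higher and 1 lower of 7, beside 8.57% and 9.03% of all genes, ETT being the lower one at 136 ± 48.9 CPM (−0.67, adjusted p = 0.0162), a call lost without globular replicate 1 and without early heart replicate 2 or 3, with adjusted p up to 0.169 over the alternatives. The early heart library lowest in KAN3, replicate 1, was also the lowest in YAB2 and YAB3.

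Of 4 adaxial and blade factors 1 was higher and 1 lower at the globular step, beside 11.4% and 12.2% of all genes. At early heart 4 of 4 tested were higher, beside 8.57% of all genes, with a median log2 fold change of 2.19, against 0.04 over all genes tested. AS1, a MYB factor that restrains meristem genes in organs, had 100 ± 8.85 CPM in early heart embryos, against 25.4 ± 10.4 CPM in globular embryos (1.98, adjusted p = 2.22e-05). AS2, its partner on the adaxial side, had 6.04 ± 1.01 CPM in early heart embryos, against 2.36 ± 0.297 CPM in globular embryos (1.36, adjusted p = 0.00242). PRS and WOX1, homeobox genes of the organ margin, were the other members of the list, and PRS had 9.53 ± 1.09 CPM in early heart embryos, against 1.80 ± 0.891 CPM in globular embryos (2.41, adjusted p = 0.000204). WOX1 had 125 counts in early heart embryos and 4 in globular embryos. At this step REV, ATHB8 and PHB rose as well.

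**Figure D4:**
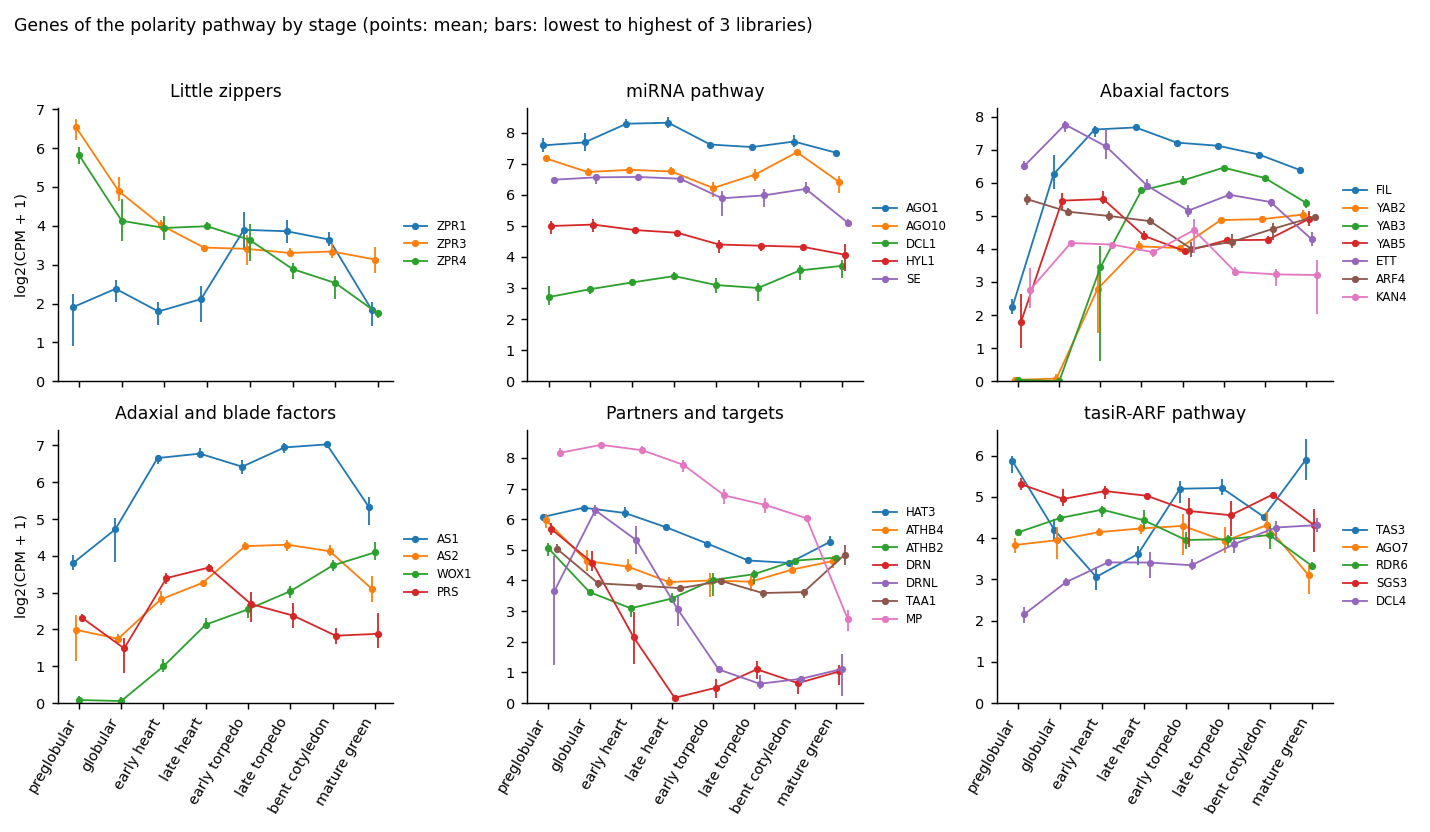
Stage means of the pathway genes on log2(CPM + 1) (vertical axis) over the 8 stages (horizontal axis), 1 panel per role, with bars from the lowest to the highest library. ZPR3 and ZPR4 run down from preglobular, while FIL, YAB5 and AS1 run up between preglobular and early heart.

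In bent cotyledon RNA the members' levels were measured at lower input and with other kits, which bears on how far the stage values depend on the preparation. With Smart-seq2 no member was called at 1, 0.5 or 0.1 ng over 5 ng, where 0.0%, 0.0% and 0.205% of 17090 genes tested were called; 0, 0 and 1 members had an unadjusted p under 0.05. For PHB the log2 fold change of 1 ng over 5 ng was −0.07, with a 95% interval of −0.93 to 0.79, and for KAN2 it was −0.26 (−0.80 to 0.27). Changes within these intervals remain possible, and the intervals come from the fit without a replicate block. REV at 0.1 ng had 13.9, 26.5 and 15.7 TPM, against 12.9, 13.1 and 14.4 TPM at 5 ng, with a log2 fold change of 0.54 (0.04 to 1.05; adjusted p = 0.457). PHB at 0.1 ng had 8.31, 32.1 and 7.87 TPM, against 17.7, 18.7 and 22.8 TPM at 5 ng, and 1 of the 3 low-input libraries was above and the other 2 were below all 5 ng libraries. Its log2 fold change was −0.16 (adjusted p = 0.946), and without 0.1 ng replicate 2 it was −1.19 (adjusted p = 0.0237). The 0.1 ng libraries were unequal in depth, with 1021484 estimated counts in replicate 3, against 7587832 and 7800194 in replicates 1 and 2. In replicate 3 PHB had 28 counts and REV 63. KAN3 was at 0 in 2 of the 12 Smart-seq2 libraries, 0.1 ng replicates 1 and 3.

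At 5 ng the Ovation library was below all 3 Smart-seq2 libraries for every member. Other noncoding entries held 22.6% of the estimated counts in that Ovation library, against 3.35%, 3.40% and 2.14% in the 5 ng Smart-seq2 libraries. These entries count in the deposited TPM, and their part in the difference was not tested. At 5 ng PHB had 4.55 TPM with Ovation and 30.3 TPM with SMARTer, against a mean of 19.7 TPM with Smart-seq2. KAN2 had 0.701 TPM with Ovation and 9.31 TPM with SMARTer, against 14.0 TPM with Smart-seq2, and KAN1 had 0.452 TPM with Ovation and 2.85 TPM with SMARTer, against 5.30 TPM with Smart-seq2. Over all inputs PHB ranged from 4.55 to 8.22 TPM in 5 Ovation libraries, from 7.63 to 30.3 TPM in 5 SMARTer libraries and from 7.87 to 32.1 TPM in 12 Smart-seq2 libraries. KAN3 was at 0 in 4 of 5 Ovation libraries, and in SMARTer libraries PHV and REV were at 0 in 1 of 5 and ATHB8, KAN1 and KAN3 in 2 of 5. With 1 library for each kit and input these differences have no replicate check, and tables of different kits were quantified separately.

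**Figure D5:**
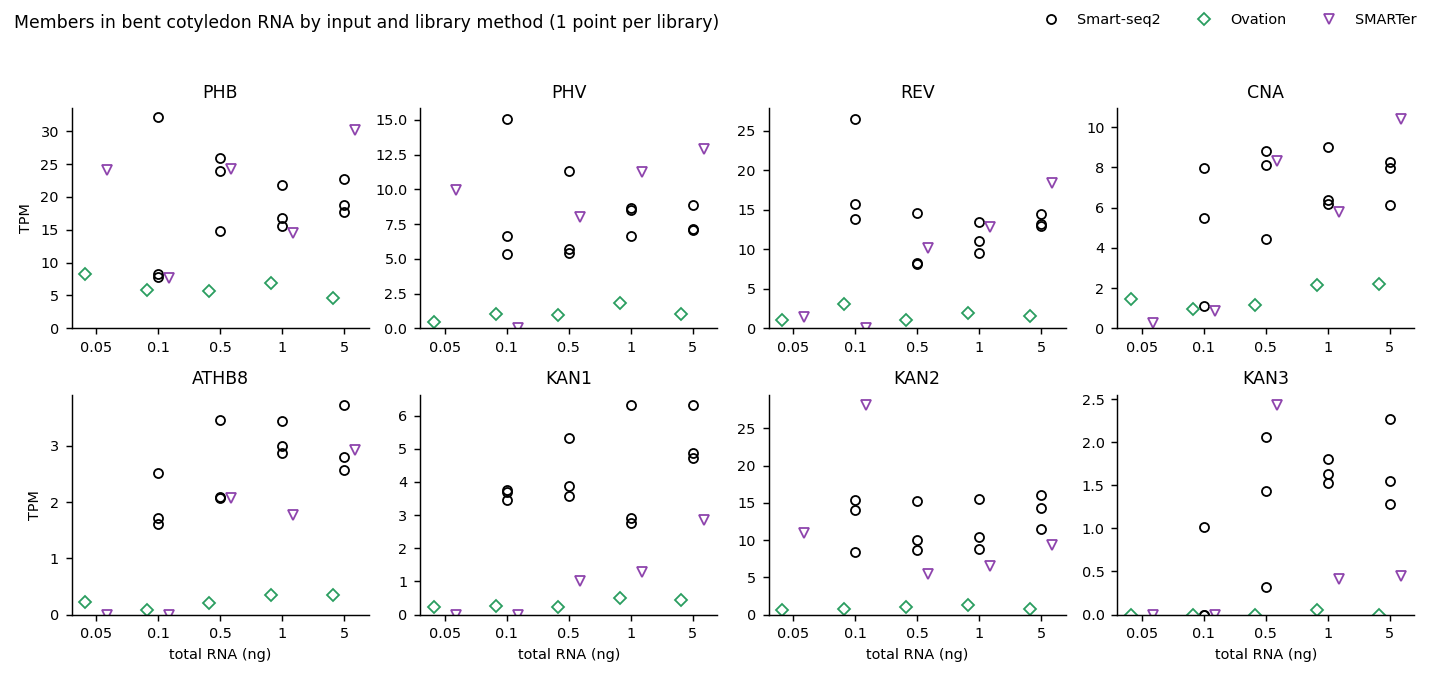
TPM of each member in bent cotyledon RNA (vertical axis) by RNA input in ng (horizontal axis, inputs evenly spaced in rising order) for Smart-seq2 (3 libraries each), Ovation and SMARTer (1 library each); each point is a library. The Ovation points for KAN2 lie between 0.607 and 1.23 TPM, below all Smart-seq2 points, of which the lowest is 8.41 TPM.

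Genes with the most similar course were listed by Pearson's r of stage means on log2(CPM + 1) over the 8 stages, among 7192 genes with a symbol and at least 5 CPM at their highest stage. With so many candidates and 8 stages from shared libraries, high values are to be had for any course, and they are a description only. The nearest genes were SOL1 (0.951) for PHB, BRCC36B (0.954) for PHV, PUB39 (0.940) for REV, SOL1 (0.950) for CNA, ANX1 (0.982) for ATHB8, PHYA (0.966) for KAN1, ZCF61 (0.987) for KAN2 and HB51 (0.974) for KAN3. AGO1 was second for PHV (0.922). Between members the highest values were 0.873 for PHB with CNA and 0.847 for PHV with KAN1, and the lowest was −0.824 for CNA with KAN2.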

How the data were processed

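Messenger RNA of wild-type embryos was sequenced, and the authors trimmed reads with cutadapt 1.9.1 and quantified transcripts with kallisto 0.43.1 against TAIR10, per the submitters' processing notes, which do not give the annotation version or further settings. Each of the 43 deposited tables gives estimated counts and TPM for 54845 transcripts; the deposited estimated counts are not whole numbers, and the deposited TPM are the authors' length-normalized values. Here, estimated counts of the 53685 transcripts with a locus name were summed over 32507 loci and rounded, and TPM were summed per locus. The 96 spike-ins (up to 4.98% of a stage library) and 1064 other noncoding entries (up to 3.40%) stayed out of library sizes and of tests on counts. The deposited TPM were not rescaled, so these entries still count in the TPM values and in the limma tests on them. Spike-ins held 3.03% to 4.98% of preglobular libraries and 0.0912% to 0.274% of globular ones.

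In R 4.3.3, edgeR 4.0.16 (filterByExpr, TMM, quasi-likelihood test with Benjamini-Hochberg adjustment) was fitted to the 24 stage libraries together, with stage as the only term, and a second fit to the 12 bent cotyledon Smart-seq2 libraries. Limma 3.58.1 on log2(TPM + 1) or log2(TPM + 0.1) and DESeq2 1.42.0 were alternatives, as were RLE factors, filters of 5 CPM in 3 libraries or none, a replicate block, fits of 2 stages, the 1 ng libraries for bent cotyledon, and leaving out each library. Fold changes from limma are on the log2(value + pseudocount) scale, which understates changes of low genes. The edgeR fit, for globular over preglobular alone, was tested on simulated counts with the same spread for all genes. The other fits, the TPM scales and the sequence steps were not tested in this way. The 95% intervals come from the edgeR fit and take in the spread between libraries. Limits for a count of 0 (3 counts) cover counting error only.

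All 8 members were named in every comparison; pathway genes came from lists by role, and the 3 nearest genes per member by correlation over stages were computed. The members and lists were chosen with earlier results of these data known. The alternatives for the pathway lists and genes were added after seeing the data. Input libraries with the same replicate number come from the same biological replicate per the labels, and deviated together weakly: their correlation averaged 0.163, the lowest being 0.041, against −0.0814 between numbers. Sequences were read from RefSeq on TAIR10.1, where 47949 of 48145 shared transcripts (99.6%) have the deposited length. Python 3.11.15, pandas 2.3.3, numpy 2.4.6 and matplotlib 3.10.9 were used.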

Additional observations from a re-analysis of the deposited data

How the results depend on the processing

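Over 33 alternatives per stage comparison, 3084 values of members in a comparison were recomputed: 2980 kept their side of the threshold, 55 of them uncalled values whose sign changed, 50 newly passed, 46 no longer passed and 8 changed sign with a call on one side. The replicate numbers do not pair the stage libraries (mean correlation of deviations −0.0149 within a number, lowest −0.356, and 0.00816 between numbers). With the replicate block 4 members were called in bent cotyledon over late torpedo embryos in place of 3, and no other count of members changed; the block gave 0 calls of members at each input. Late heart over early heart gave 1 member with DESeq2 and 2 in the fit of these stages alone, in place of 0. On the TPM scales limma called 5 members in early torpedo over late heart, 8 in mature green over bent cotyledon and, on log2(TPM + 1) and log2(TPM + 0.1), 2 and 3 in mature green over preglobular embryos, where TMM-scaled counts gave 0, 2 and 6. Signs changed there for KAN2 in mature green over bent cotyledon (−0.63 and −0.68), REV in mature green over preglobular (−0.080 and −0.091), PHB in late heart over preglobular (0.13 and 0.14), REV in the same comparison (0.25 and 0.28) and AGO10 in globular over preglobular embryos (0.068 and 0.070). All genes were shifted by −0.44 and −0.65, −0.26 and −0.44, 0.52 and 0.72, and 0.35 and 0.47 in these 4 comparisons; DESeq2 shifted them by 0.11 in mature green over bent cotyledon and 0.12 in mature green over preglobular embryos. Leaving out 1 library each gave 4 to 5 members called in globular over preglobular, 3 to 6 in early heart over globular, 0 to 0 at the next 3 steps, 2 to 4 in bent cotyledon over late torpedo, 2 to 3 in mature green over bent cotyledon, 6 to 7 in mature green over preglobular, 8 to 8 in late heart over preglobular and over the 8 stages, and 0 to 0, 0 to 0 and 0 to 1 at 1, 0.5 and 0.1 ng. Alternatives for the pathway lists were chosen after seeing the data. In globular over preglobular embryos limma called 3 and 2 miRNA pathway genes (1 by default) and 1 and 1 adaxial factors, as did the fit of these stages alone with 1 (2 by default). In early heart over globular embryos limma called 0 and 0 little zippers (1), 1 partner came from limma on both scales, from no filter and from the 1 ng libraries (2), and 1 tasiR-ARF gene from RLE factors, no filter and the block (2). Without 1 library the lists gave, in the order zippers, miRNA pathway, partners, abaxial, tasiR-ARF and adaxial, 2 to 2, 0 to 1, 4 to 6, 4 to 5, 2 to 2 and 1 to 3 in globular over preglobular, 1 to 1, 0 to 1, 1 to 2, 3 to 4, 1 to 2 and 4 to 4 in early heart over globular, and 1 to 3, 2 to 3, 3 to 4, 1 to 4, 3 to 4 and 2 to 2 in mature green over bent cotyledon embryos. The cause of these changes was not tested. Depth limits KAN3 most, with 14 counts over the 3 preglobular libraries.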

Other observations

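The tasiR-ARF pathway, which limits ETT and ARF4 on the adaxial side, held 5 tested genes, of which 1 was higher and 1 lower in globular over preglobular embryos, beside 11.4% and 12.2% of all genes. TAS3, the precursor of these small RNAs, had 17.4 ± 3.40 CPM in globular embryos, against 57.5 ± 9.35 CPM in preglobular embryos (log2 fold change −1.73, adjusted p = 1.98e-05), and fell at early heart to 7.34 ± 1.53 CPM (−1.24, adjusted p = 0.00125). These values are of the precursor and not of the small RNAs. DCL4, the dicer of this pathway, had 6.64 ± 0.504 CPM in globular embryos, against 3.44 ± 0.561 CPM in preglobular embryos (0.95, adjusted p = 0.000939).

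Among 9 tested partners and targets of HD-ZIP III proteins, 2 were higher and 3 lower in globular over preglobular embryos, beside 11.4% and 12.2% of all genes, with a median log2 fold change of −0.94. ATHB2 and ATHB4, class II homeodomain-leucine zipper genes, were both lower, with 11.3 ± 0.613 CPM for ATHB2 in globular embryos, against 32.1 ± 4.78 CPM in preglobular embryos (−1.50, adjusted p = 9.24e-06), and 23.9 ± 6.21 CPM for ATHB4 in globular embryos, against 62.0 ± 9.43 CPM in preglobular embryos (−1.37, adjusted p = 9.56e-05). HAT3, of the same class, was called higher, with 81.9 ± 0.695 CPM in globular embryos, against 66.2 ± 3.61 CPM in preglobular embryos. That call was lost under 9 of 33 alternative settings, with adjusted p up to 0.140. TAA1, an enzyme of auxin synthesis, had 14.0 ± 1.32 CPM in globular embryos, against 31.6 ± 3.58 CPM in preglobular embryos (−1.17, adjusted p = 1.05e-05). DRN and DRNL are AP2-type factors that bind HD-ZIP III proteins. DRNL had 77.2 ± 9.17 CPM in globular embryos, against 1.36 to 26.8 CPM in the preglobular libraries (2.75, adjusted p = 0.00206), its highest preglobular value being in replicate 1, the library highest in KAN1 and KAN2. Without that library the log2 fold change was 4.30 (adjusted p = 1.13e-05). DRN had 3.45 ± 3.02 CPM in early heart embryos, against 22.9 ± 6.41 CPM in globular embryos (−2.74, adjusted p = 0.000424), and −3.73 without early heart replicate 1. MP, an auxin response factor of the embryo axis, had 5.71 ± 1.59 CPM in mature green embryos, against 64.3 ± 5.10 CPM in bent cotyledon embryos (−3.49, adjusted p = 7.12e-12). YUC5, another auxin synthesis gene, had 3.08 ± 1.01 CPM in bent cotyledon embryos and no count at late torpedo, at least 55.8-fold higher over the limit of 3 counts in the group.

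In mature green over bent cotyledon embryos the pathway lists held more lower than higher calls, apart from the partners. None of 3 little zippers was higher and 2 were lower (median log2 fold change −1.0), none of 5 miRNA pathway genes was higher and 3 were lower (−0.36), and none of 4 adaxial factors was higher and 2 were lower (−0.52). Of 7 abaxial factors 1 was higher and 2 were lower (−0.01), of 5 tasiR-ARF genes 1 was higher and 3 were lower (−0.78), and of 9 partners 3 were higher and 1 was lower (0.71), against a median of 0.01 over all genes tested, of which 27.2% were called higher and 28.2% lower. Calls of abaxial factors were 1 in place of 3 without bent cotyledon replicate 1 or 2 or mature green replicate 1 or 3, and calls of little zippers 1 in place of 2 without bent cotyledon replicate 2 or mature green replicate 3. AS1 had 39.0 ± 10.2 CPM in mature green embryos, against 130 ± 3.83 CPM in bent cotyledon embryos (−1.73, adjusted p = 2.33e-06). SE, a partner of the dicer DCL1, had 33.4 ± 2.87 CPM in mature green embryos, against 71.9 ± 11.2 CPM in bent cotyledon embryos (−1.11, adjusted p = 3.04e-05). At early heart over globular the tasiR-ARF genes had 1 higher and 1 lower call of 5 (median 0.21) and the partners 2 lower and none higher of 9 (−0.20).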
